A study of Homo sapiens with 16 samples.

Results

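The genes described here are 47 transcription factor genes of the developmental homeobox and paired box classes, taken by name: 8 PAX genes, 6 NKX genes, 3 sine oculis genes (SIX2, SIX3, SIX6), 6 LHX genes, 6 IRX genes, 6 DLX genes, 7 genes of head and midline development (OTX1, OTX2, EN1, EN2, GSC, EMX1, EMX2) and 5 further homeobox genes (PITX1, ALX1, ALX4, MSX1, MSX2). They are 47 of the 63684 genes with a window in a deposited table of read counts around transcription start sites (TSS), and they hold 247 distinct windows of 2000 bp, each centred on a start. The reads come from the human fibroblast cell line BJ-5ta, which divides without limit because it carries hTERT, and in which dimethylation of histone H3 at lysine 9 (H3K9me2) was measured by ChIP-seq. In this assay chromatin is cross-linked and sonicated, an antibody pulls out the fragments that carry the mark, and input libraries are made from chromatin that saw no antibody. In the labels the antibody is called H3, whereas the study's methods give H3K9me2.

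Wild type BJ-5ta cells and ΔLEO1 cells, in which CRISPR/Cas9 removed part of LEO1, were each sampled proliferating in 10% serum and quiescent after 10 days in 0.1% serum. LEO1 is a subunit of the PAF1 complex, which travels with RNA polymerase II. The ΔLEO1 cells are 1 single-cell clone, so that a property of that clone and an effect of LEO1 loss cannot be told apart. Each of the 4 combinations had 2 ChIP and 2 input libraries, lettered A and B, which gave 16 libraries in 8 groups. The labels do not say that A and B came from separate cultures, and the p-values measure only the spread between these libraries.

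Depth over distinct TSS windows ran from 1895572 to 3266061 reads in 7 of the 8 ChIP libraries and from 2844483 to 7947289 in the 8 inputs. The ChIP library of ΔLEO1 in 10% serum, replicate A, held 50 reads and was left out throughout, so that ΔLEO1 in 10% serum is 1 ChIP library and its values carry no test. At a start of LEO1 (window at chr15:51970776-51972776, hg38) the inputs of both genotypes held reads, 26 to 51 in wild type and 16 to 24 in ΔLEO1. The position of the deletion is not in the tables, so this window checks nothing. No RNA is in the tables, and the fibroblast identity of the cells could not be read from marker genes here.

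Homeobox genes encode proteins that bind DNA through a homeodomain, and PAX proteins bind it through a paired domain. They set the identity of body regions and organs in the embryo, and each is silent in most adult cell types, often with a start that lies in a CpG-rich island. H3K9me2 is laid down mainly by the methyltransferases G9a and GLP, covers broad tracts of silent chromatin and is as a rule low at active starts. The members were set beside the HOX genes, which are homeobox genes in 4 clusters of their own, and beside housekeeping genes, whose starts are active in all cells.

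ChIP over input was compared first, to see how much of the mark the starts of these regulators carry. The members were split: 12 of the 46 tested were lower in ChIP than in input, 19 were higher and 15 were not called. Values are log2 ratios from 1 edgeR quasi-likelihood fit over all genes, averaged over wild type in 10% serum, wild type in 0.1% serum and ΔLEO1 in 0.1% serum, with a call at an adjusted p under 0.05. Of all 57627 genes tested, 32.8% were called lower and 39.4% higher, and the member counts come to 26.1% and 41.3%. The median over the members was 0.06, against 0.14 over all genes. The range was wide, from -4.06 for IRX5 to 1.56 for IRX1. These ratios are relative to the middle of all genes, because trimmed-mean (TMM) scaling sets that middle near 0, and say nothing of the absolute amount of the mark. With library sizes taken from the peak table in place of TMM, the median over all genes moved to -1.43 and 42 members were lower and 0 higher. Peak regions hold a larger share of the reads in ChIP than in input. This scaling therefore puts nearly all genes (57722 of 57844) below input by construction. The sign of a ratio depends on the scaling, and this one is no check of any member.

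The members, like all genes, held a mixture where the housekeeping starts did not. Of 37 housekeeping genes tested, 36 were called lower and 0 higher, with a median of -1.56. Examples were ACTB, the beta-actin gene, at -2.52 ± 0.20 (SE) and GAPDH, the glycolytic enzyme gene, at -4.50 ± 0.28 (SE). Of 39 HOX genes, 17 were lower and 6 higher, with a median of -0.21. HOXA5 stood at 0.14 ± 0.16 (SE) and HOXD13 at 0.59 ± 0.15 (SE). A list of 60 other tissue-restricted homeobox genes had 17 lower and 26 higher, with a median of 0.13. Homeobox genes that are broadly expressed had 16 of 19 lower and 1 higher, with a median of -1.10. Olfactory receptors, which are silent outside the nose, had 18 of 353 lower and 241 higher, with a median of 0.61. The upper end of the members, at 1.56, lay close to that of the olfactory receptors at 1.59, and the lower end, at -4.06, close to that of the HOX genes at -4.02.

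**Figure D1:**
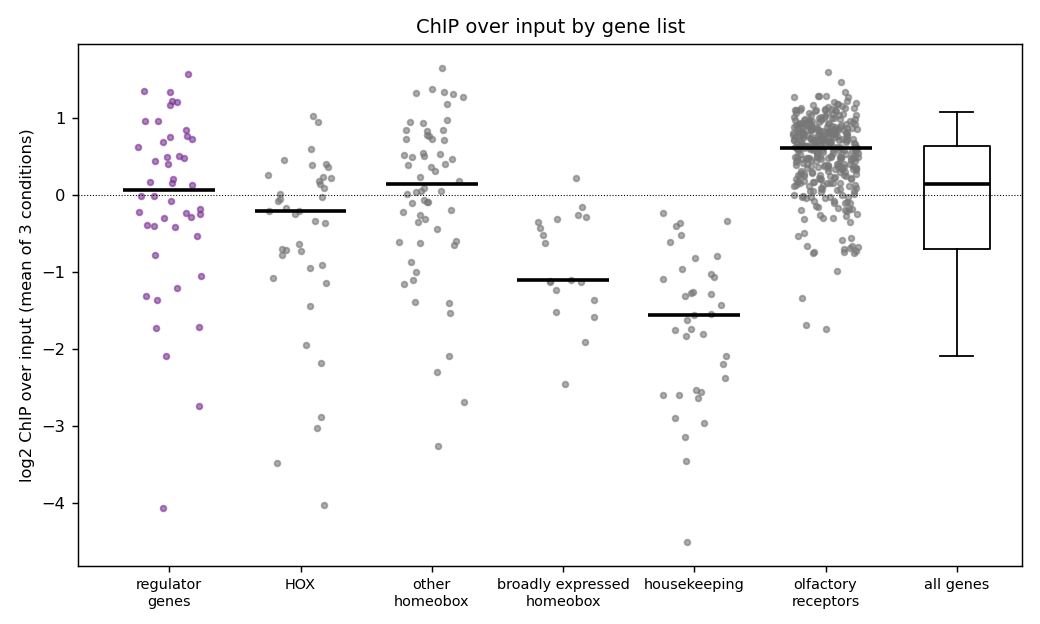
Log2 ChIP over input (vertical axis) for each gene of 6 lists, 1 point per gene with a bar at the list median; the box of all genes spans the 25th to 75th percentile, with whiskers at the 5th and 95th. The members reach from -4.06 to 1.56 around a median of 0.06, whereas the housekeeping genes sit around -1.56 and the olfactory receptors around 0.61.

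Iroquois genes stood at both ends of the range. Among the Iroquois (IRX) genes, which pattern the neural tube, heart and limb, IRX5, IRX3 and IRX2 were lower in ChIP, IRX1 and IRX4 were higher, and IRX6, at 0.16 ± 0.15 (SE), was not called. These 6 genes form 2 clusters, IRX1, IRX2 and IRX4 on chromosome 5 and IRX3, IRX5 and IRX6 on chromosome 16, and each cluster held genes at both ends or in the middle.

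IRX5 had the least ChIP of all members. Its 3 windows (chr16:54929865-54933072) held 0 to 6 reads in the 7 ChIP libraries and 60 to 132 in the inputs, with reads of overlapping windows counted in each. Values per library are CPM per window, the reads of a window scaled to a common library size. The ChIP libraries had a lowest value of 0, a median of 0.13 and a highest of 0.97, and the inputs 3.60, 5.03 and 8.53. All ChIP values lay below all input values, and the fitted log2 ratio was -4.06 ± 0.29 (SE, adjusted p = 2.84e-11). Because its ChIP libraries are near 0, the size of this ratio depends on the prior count of the fit.

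IRX3, its neighbour on chromosome 16, ranged in ChIP from 0.55 over a median of 1.12 to 2.13 CPM per window, and in input from 3.12 over 4.85 to 7.27. The groups did not overlap, with a log2 ratio of -2.09 ± 0.22 (SE, adjusted p = 2e-08). The single start window of IRX1 on chromosome 5 (chr5:3594832-3596832) was the opposite case, with ChIP from 4.42 over 9.79 to 15.8 CPM and input from 1.64 over 3.00 to 4.25. Every ChIP library lay above every input, at a log2 ratio of 1.56 ± 0.17 (SE, adjusted p = 3.5e-08). IRX4, with 8 windows, showed ChIP from 4.09 over 6.18 to 10.0 CPM per window and input from 2.38 over 2.97 to 4.00, again without overlap, and a ratio of 0.96 ± 0.13 (SE). Between them on the chromosome lies IRX2, whose ChIP ranged from 0.55 over 0.94 to 2.69 and whose input from 2.23 over 4.26 to 6.44. The ranges of IRX2 overlapped, because wild type in 10% serum reached 2.69 in ChIP, and its ratio was -1.72 ± 0.23 (SE, adjusted p = 6.15e-07).

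**Figure D2:**
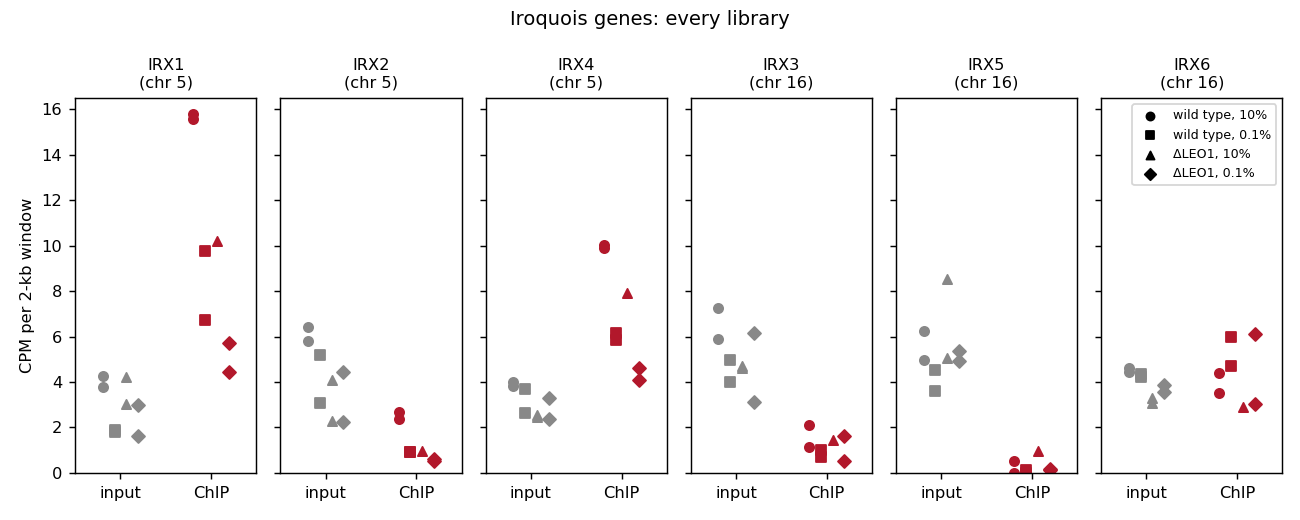
CPM per 2-kb window (vertical axis, linear from 0) of the 6 Iroquois genes in every library, input in grey on the left and ChIP in red on the right of each panel; the symbol gives genotype and serum, and ΔLEO1 in 10% serum has 1 ChIP point. IRX1 and IRX4 have every ChIP point above every input point, IRX3 and IRX5 have every ChIP point below, and IRX2 has ChIP points from 0.55 to 2.69 against inputs from 2.23 to 6.44.

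The distal-less (DLX) genes, which act in forebrain interneurons, jaw and limb, lie in pairs, and 3 of 6 were lower and 1 higher. DLX2 had 0 to 4 ChIP reads and 26 to 51 input reads in its window. In CPM its ChIP ranged from 0 over 0.80 to 1.95 and its input from 5.04 over 6.19 to 12.2, with no overlap and a log2 ratio of -2.74 ± 0.29 (SE, adjusted p = 1.92e-08). Its partner DLX1, at -1.32 ± 0.16 (SE), and DLX3, at -1.36 ± 0.19 (SE), had all 7 ChIP libraries below all inputs as well. DLX4, the partner of DLX3, was at -0.30 ± 0.15 (SE) and not called. Of the third pair, DLX5 was at -0.29 ± 0.20 (SE) and not called, and DLX6 was higher at 0.68 ± 0.16 (SE).

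The start sequences of the 2 lowest and the 2 highest members whose promoter is held by RefSeq's table (build GRCh38.p14) and falls inside the summed windows are printed to set starts from both ends of the range side by side. Each runs 5′ to 3′ on the strand of the gene, from 250 bases before the annotated start to 50 after, with each CG dinucleotide in capitals. CG reads the same on both strands.

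DLX2, minus strand, chr2:172102851-172103150: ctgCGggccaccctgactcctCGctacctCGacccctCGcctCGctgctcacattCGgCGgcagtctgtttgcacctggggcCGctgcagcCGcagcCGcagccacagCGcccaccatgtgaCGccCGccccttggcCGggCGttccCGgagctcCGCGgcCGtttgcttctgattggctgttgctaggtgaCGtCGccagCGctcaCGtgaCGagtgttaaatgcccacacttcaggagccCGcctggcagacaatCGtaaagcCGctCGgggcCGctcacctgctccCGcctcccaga
IRX2, minus strand, chr5:2751628-2751927: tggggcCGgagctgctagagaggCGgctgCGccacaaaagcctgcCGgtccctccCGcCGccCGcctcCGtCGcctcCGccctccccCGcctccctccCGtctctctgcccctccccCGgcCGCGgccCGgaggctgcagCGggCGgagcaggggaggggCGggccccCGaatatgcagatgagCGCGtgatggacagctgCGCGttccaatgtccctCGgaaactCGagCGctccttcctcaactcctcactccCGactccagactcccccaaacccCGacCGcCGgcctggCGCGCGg
SIX6, plus strand, chr14:60508896-60509195: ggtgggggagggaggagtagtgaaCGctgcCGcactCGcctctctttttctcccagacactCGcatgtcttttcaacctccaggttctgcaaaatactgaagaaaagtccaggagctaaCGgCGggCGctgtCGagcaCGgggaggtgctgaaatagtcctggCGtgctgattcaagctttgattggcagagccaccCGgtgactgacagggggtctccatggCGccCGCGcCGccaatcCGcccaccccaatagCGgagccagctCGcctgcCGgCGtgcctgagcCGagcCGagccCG
IRX1, plus strand, chr5:3595582-3595881: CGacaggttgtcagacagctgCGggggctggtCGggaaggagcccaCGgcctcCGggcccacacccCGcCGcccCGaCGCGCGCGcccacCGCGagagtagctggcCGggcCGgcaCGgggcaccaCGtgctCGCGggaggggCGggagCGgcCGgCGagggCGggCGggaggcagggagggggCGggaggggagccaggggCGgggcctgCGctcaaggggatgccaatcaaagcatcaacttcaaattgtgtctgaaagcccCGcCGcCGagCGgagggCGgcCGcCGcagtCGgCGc

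The DLX2 stretch held 30 CG dinucleotides and that of IRX2 held 34, against 23 in SIX6 and 38 in IRX1. At least as many are found in 22.1% of all 27305 promoters of the table for DLX2, in 15.3% for IRX2, in 35.6% for SIX6 and in 9.69% for IRX1. The 2 genes low in ChIP thus lay between the 2 high ones in CG number. The table held 31 of the 47 members (66.0%), and a check of base composition over the whole list is therefore void.

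SIX6, a regulator of eye and pituitary development, had 1 window and ranged in ChIP from 7.64 over a median of 12.6 to 15.3 CPM and in input from 2.95 over 4.60 to 5.24. All ChIP libraries lay above all inputs, at a log2 ratio of 1.33 ± 0.16 (SE, adjusted p = 8.66e-08). Neither of its relatives was called, SIX3, which acts in the forebrain, at 0.13 ± 0.18 (SE) and SIX2, which maintains kidney progenitors, at -0.40 ± 0.19 (SE). EN2, an engrailed gene of the midbrain and hindbrain, ranged in ChIP from 2.81 over 6.39 to 15.2 CPM and in input from 1.15 over 2.05 to 3.82. Both ΔLEO1 libraries in 0.1% serum, at 3.27 and 2.81, lay within the range of its inputs, and its ratio of 1.22 ± 0.26 (SE, adjusted p = 0.000199) rests on 7 to 38 ChIP reads a library. Its paralogue EN1 was at -0.23 ± 0.20 (SE) and not called.

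Of the NK homeobox genes, which specify ventral neural, thyroid, lung, heart and skeletal lineages, 3 of 6 were higher and 0 lower. NKX6-2, an oligodendrocyte and interneuron regulator, ranged in ChIP from 3.58 over 7.30 to 15.8 CPM per window and in input from 1.91 over 3.22 to 4.25. Only 1 ChIP library, wild type in 0.1% serum replicate B at 3.58, fell within the input range, and the log2 ratio was 1.35 ± 0.17 (SE, adjusted p = 2.89e-07). NKX6-1, which acts in motor neurons and beta cells, was at 1.16 ± 0.15 (SE) with all ChIP libraries above all inputs. NKX2-2, of ventral neural progenitors, was higher at 0.43 ± 0.19 (SE, adjusted p = 0.0429), just inside the threshold. NKX2-1, of thyroid and lung, stood at 0.15 ± 0.15, NKX3-2, of the axial skeleton, at -0.19 ± 0.17, and NKX2-5, of the heart, at -0.39 ± 0.20 (all SE), and these 3 were not called.

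The paired box genes had 4 of 8 higher and 1 lower. PAX1 and PAX9, which act in the sclerotome, were higher at 1.20 ± 0.16 and 0.72 ± 0.14 (SE), as were PAX8, of thyroid and kidney, at 0.50 ± 0.11 (SE) and PAX6, of the eye, at 0.49 ± 0.09 (SE). PAX6 sums 66 windows, of which 9 do not overlap, so the same reads enter its SE repeatedly. PAX2, of kidney and optic stalk, was lower at -0.53 ± 0.13 (SE). PAX3 and PAX7, of neural crest and muscle progenitors, and PAX5, of B cells, lay between -0.23 and -0.01 and were not called. The pairs of close paralogues thus differed in PAX2 and PAX8, while PAX1 and PAX9 were both higher.

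Among the LIM homeobox genes, LHX9 at -1.06 ± 0.15 (SE) and LHX5 at -0.78 ± 0.17 (SE) were lower, LHX3, of the pituitary and motor neurons, at 0.84 ± 0.15 (SE) and LHX8, of the basal forebrain, at 0.40 ± 0.14 (SE) were higher, and LHX2 at -0.02 ± 0.15 (SE) was not called. LHX1 could not be tested. It held 3 reads in all, from the 2 ΔLEO1 inputs in 10% serum, and 6 of its 11 windows lie on the primary chromosome. In the head and midline group OTX1 was lower at -1.20 ± 0.18 (SE), and OTX2 at 0.76 ± 0.16, EMX2 at 0.62 ± 0.15, GSC at 0.95 ± 0.18 and EN2 were higher, while EMX1 at 0.20 ± 0.13 (all SE) was not called. The 2 OTX genes, both of forebrain and midbrain, thus stood on opposite sides. The same held for ALX4 at -1.71 ± 0.25 and ALX1 at 0.75 ± 0.16 (SE), which act in the craniofacial mesenchyme. PITX1, which specifies the hindlimb, was lower at -0.41 ± 0.14 (SE), MSX2 was higher at 0.48 ± 0.16 (SE), and MSX1 at -0.25 ± 0.16 (SE) was not called.

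**Figure D3:**
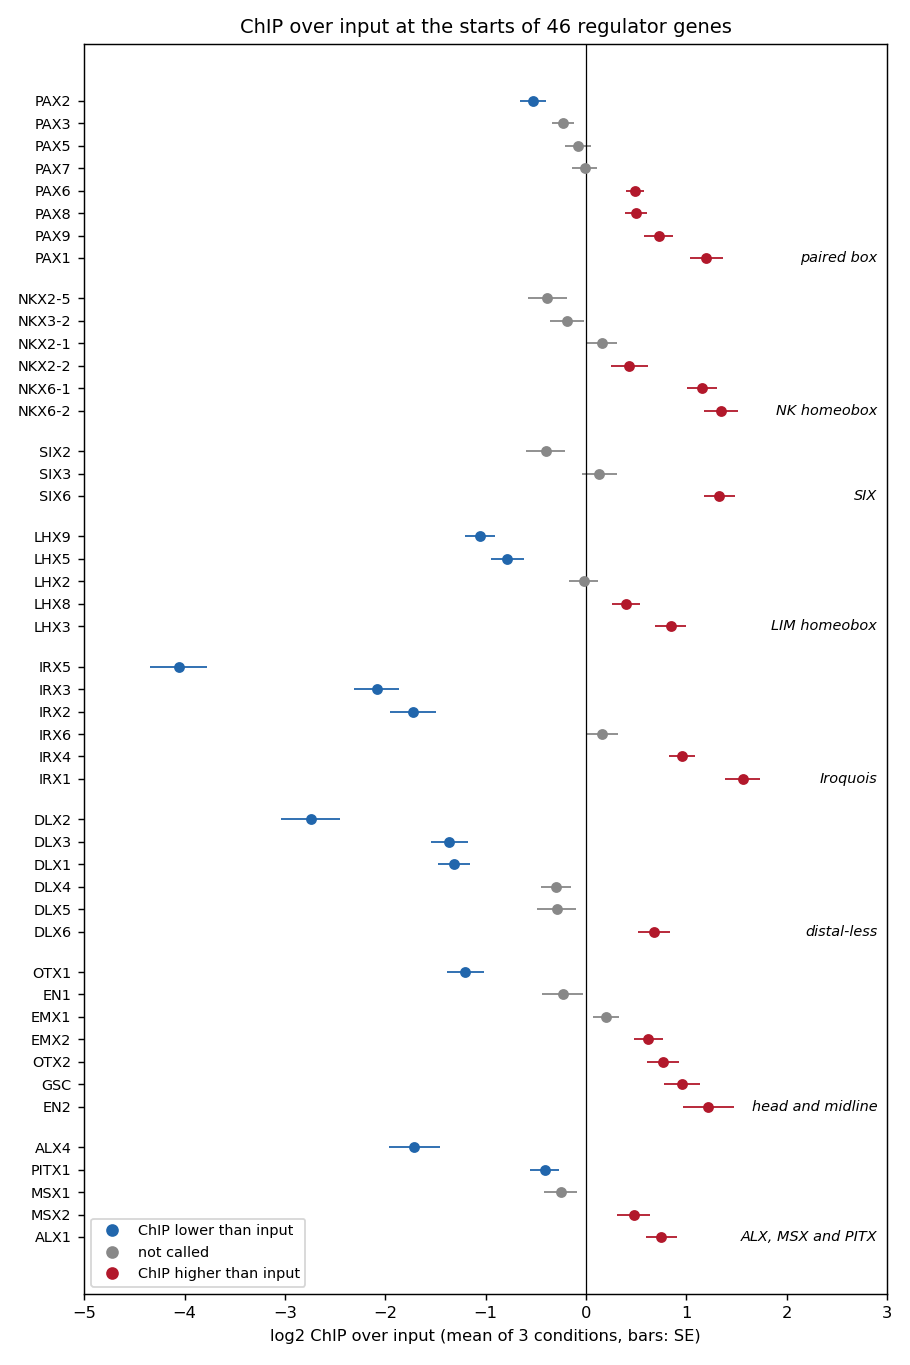
Log2 ChIP over input (horizontal axis) with its SE for the 46 members tested, ordered within each family; blue points were called lower, red points higher and grey points were not called. The 12 blue points reach down to -4.06 (IRX5) and the 19 red points up to 1.56 (IRX1), and Iroquois, distal-less, LIM and paired box genes each hold both colours.

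Each condition was also read alone, with 2 ChIP against 2 input libraries. In wild type at 10% serum, 13 members were lower and 17 higher, against 27.3% and 29.7% of all genes. In wild type at 0.1% serum the counts were 9 and 15, against 23.9% and 20.1%, and in ΔLEO1 at 0.1% serum 10 and 7, against 23.8% and 19.7%. Lower in each of the 3 were 9 members, IRX2, IRX3, IRX5, DLX1, DLX2, DLX3, OTX1, LHX5 and LHX9, and 7 were higher in each, PAX6, PAX9, NKX6-1, NKX6-2, SIX6, IRX1 and IRX4. Over all genes 18.5% were lower in each and 9.88% higher in each. The difference between these counts was not tested. Of the members, 7 had all ChIP libraries below all inputs (IRX3, IRX5, DLX1, DLX2, DLX3, OTX1, LHX9), against 20.4% of all genes, and 6 had all ChIP libraries above (PAX6, PAX9, NKX6-1, SIX6, IRX1, IRX4), against 14.7%.

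The windows of 1 gene did not always have the same value. Of the 2 non-overlapping windows of MSX1, that at chr4:4858665-4860665 stood at -1.76 and that at chr4:4861428-4863428 at 0.44, as log2 ratios of mean CPM without a test. LHX9 showed -0.25 and -2.34 at its 2 windows. DLX1 showed -1.30 and 0.17. The 4 windows of PAX3 spread from -1.23, at a window shared with CCDC140, to 0.70. The 9 windows of PAX6 spread from -0.17 to 1.11, and the 2 non-overlapping windows of IRX4 stood at 0.80 and 0.82. In all, 106 windows of 27 members overlap a window of another gene and ChIP reads carry no strand to tell them apart. With only non-overlapping windows, 15 members were lower and 17 higher. Without windows shared with another gene, which leaves fewer members, 12 were lower and 13 higher. The share of all genes called with these windows was not computed, so these counts have no background here.

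The starts were then set against their surroundings, taken as all other TSS windows between 10 kb and 1 Mb away, some of which belong to other members. Of 46 members, 31 had a higher ratio than their surroundings and 15 a lower one, again as log2 ratios of mean CPM. The members' share of 67.4% lay near the 61.2% of all 57261 genes with such surroundings. The surroundings ran from -0.92 around LHX3 to 0.78 around IRX1, with a median of -0.19. Each pools many windows, from 36 around IRX1 to 507 around LHX3, which by itself narrows their range beside that of single members. The members' own windows had a median of 0.06. IRX5 lay at -5.15 in surroundings at 0.28, and IRX2 at -1.99 in surroundings at 0.65, so that both were low starts within tracts of higher ratio. LHX3 at 0.87 and NKX6-1 at 1.21 were the converse, in surroundings at -0.92 and -0.51.

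**Figure D4:**
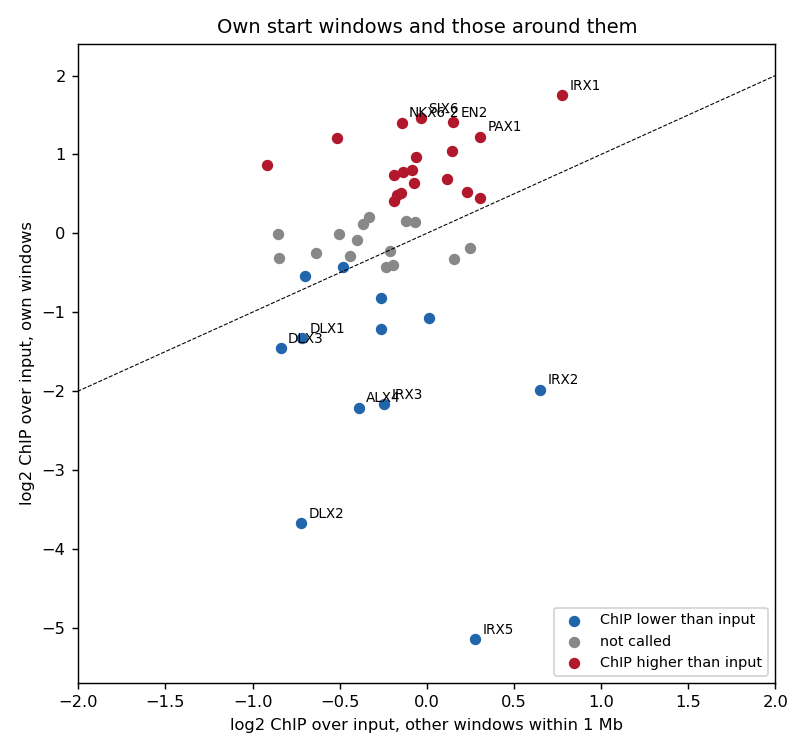
Log2 ChIP over input of each member's own windows (vertical axis) against that of other TSS windows within 1 Mb (horizontal axis), coloured by the call of ChIP over input; the dashed line marks equal values. The surroundings, each pooled over many windows, lie between -0.92 and 0.78, while the own windows reach from -5.15 (IRX5) to 1.75 (IRX1).

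The deposited peak table, with 16092 merged regions, touched few of these starts. A region overlapped a summed window of 4 members, NKX6-2, LHX3, IRX1 and PITX1, or 8.51% of the 47, against 2.98% of all genes, 0 of the 39 HOX genes and 2.56% of the housekeeping genes. The other tissue-restricted homeobox genes, with 6 of 60, and the broadly expressed ones, with 2 of 20, both came to 10.0%, above the members. At IRX1 the region (chr5:3594475-3595345) is annotated as promoter but ends before the promoter stretch printed above. It held 8 to 26 ChIP reads and 4 to 14 input reads a library, a log2 ratio of 1.74. At NKX6-2 it lies in the last exon (chr10:132784768-132785400), with 5 to 19 ChIP reads against 3 to 10 and a ratio of 1.79. At LHX3 it is annotated as promoter but covers no start, taken as the centre of a window (chr9:136205399-136205907). It held 2 to 24 ChIP reads against 0 to 14 in input, a ratio of 2.42. At PITX1, called lower over its summed windows, the region lies in an exon (chr5:135030897-135031739), with 7 to 29 against 6 to 16 and a ratio of 1.66. The 2 non-overlapping windows of PITX1 stood at 0.54 and -0.97. Close by but outside the windows were regions 23 bp from those of PAX5, 201 bp from PAX9 and 1130 bp from GSC. The libraries in which regions were called are not given in the sources used here, so these ratios are a description.

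Genotype was compared in quiescent cells, 2 ΔLEO1 against 2 wild type ChIP libraries in 0.1% serum. None of the 43 members tested was called (edgeR, 0 at an adjusted p under 0.05, 8 at an unadjusted p under 0.05), and DESeq2 also called 0. Over all 52966 genes 6 were called, or 0.0113%, and 5319 had an unadjusted p under 0.05. The members nevertheless sat mostly to one side. They are all read from the same 2 against 2 libraries, so they are not replicates of the genotype, and a difference of 1 library can move many together. The list was also chosen with earlier results of these data known. In ΔLEO1 35 of 43 had the lower fitted value, against 50.6% of all genes, with a median log2 difference of -0.24 against -0.01. Lower here and below means lower relative to the middle of all genes, which TMM sets near 0. A gain or loss shared by all genes cannot be seen this way. With scaling to added fly chromatin, the study reported H3K9me2 raised at most regions that differed in quiescent ΔLEO1 cells. For 24 members the wild type libraries were both higher than either ΔLEO1 library, against 21.1% of all genes, and for 1, PAX7, both lay above, against 20.1%. The same pattern of libraries held for 8 of 33 HOX genes, 17 of 57 other homeobox genes and 2 of 36 housekeeping genes, and the housekeeping genes had a median difference of 0.19. Library totals in place of TMM, whose factors in these libraries ran from 1.115 to 1.133, left the counts at 24 and 1. With the peak-table totals as library sizes the median of all genes moved to 0.29 and that of the members to 0.07. Then 9 members lay below and 10 above, against 7.05% and 45.5% of all genes, so that the direction of the members depends on the scaling. A change of library size moves all genes nearly alike. The members' place below the middle of all genes therefore had to stay, and its return under each scaling is no separate check. IRX5, DLX2 and ALX4 were left out by the filter on low counts in this fit.

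The members with the largest lower values were DLX1, SIX2 and ALX1. DLX1 had 2.98 and 3.66 CPM per window in wild type and 1.21 and 2.18 in ΔLEO1, a log2 difference of -0.96 ± 0.33 (SE, adjusted p = 0.349). SIX2 had 6.45 and 6.40 CPM in wild type and 3.00 and 3.62 in ΔLEO1, at -0.85 ± 0.34 (SE, adjusted p = 0.426). ALX1 had 10.1 and 9.79 CPM in wild type and 5.18 and 6.03 in ΔLEO1, at -0.78 ± 0.28 (SE, adjusted p = 0.373). In these 3 genes the libraries of the genotypes did not overlap, yet no difference passed the test. Without ΔLEO1 replicate A the value of DLX1 was -0.58.

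At the other end PAX7 had 2.15 and 3.26 CPM per window in wild type and 3.91 and 3.75 in ΔLEO1, at 0.48 ± 0.30 (SE, adjusted p = 0.626), and without wild type replicate A or B at 0.22 or 0.76. IRX3 had 0.72 and 1.00 in wild type and 0.55 and 1.61 in ΔLEO1, at 0.18 ± 0.49 (SE, adjusted p = 0.941), and EMX1 had 4.14 and 5.90 against 5.64 and 5.36, at 0.13 ± 0.24 (SE, adjusted p = 0.901). IRX3 and EMX1 overlapped between the genotypes. Their order turned when wild type replicate A was left out, at -0.01 for IRX3 and -0.09 for EMX1. With only non-overlapping windows, LHX3 was called, at -0.74 ± 0.21 (SE, adjusted p = 0.0426), together with 1.06% of 50774 genes, where the summed windows gave -0.65 and an adjusted p of 0.398.

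Cells in 10% serum gave a comparison that shares no library with the one above, 1 ΔLEO1 against 2 wild type libraries and without a test. Here 31 of 43 members had the lower fitted value in ΔLEO1, against 50.9% of all genes, with a median of -0.21. The single ΔLEO1 library lay below both wild type libraries for 22 members, against 36.0% of all genes. In both sera 27 members had the lower value, against 29.0% of all genes, and 14 lay below in every library of both sera, against 10.1%. These were IRX1, IRX2, IRX4, LHX3, LHX5, LHX9, PAX5, PAX8, PAX9, NKX3-2, NKX6-1, DLX6, EMX2 and GSC. IRX1 had 15.6 and 15.8 CPM in wild type against 10.2 in ΔLEO1 in 10% serum, and 6.75 and 9.79 against 5.73 and 4.42 in 0.1% serum. IRX2 had 2.39 and 2.69 against 0.97 CPM per window in 10% serum, and 0.92 and 0.94 against 0.55 and 0.60 in 0.1% serum. IRX4 had 10.0 and 9.92 against 7.91, and 6.18 and 5.84 against 4.09 and 4.62. LHX3 had 7.28 and 8.91 against 4.14, and 8.75 and 6.97 against 5.11 and 4.82. Among the members called higher in ChIP in wild type at 10% serum, which share no library with the comparison in 0.1% serum, 15 of 17 had the lower value in ΔLEO1 there, against 62.4% of all genes of that class, with a median of -0.52 against -0.10. Of the 16 not called, 13 did, against 46.6%, with a median of -0.19 against 0.03. Of the 10 called lower, 7 did, against 41.8%, with a median of -0.24 against 0.08.

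**Figure D5:**
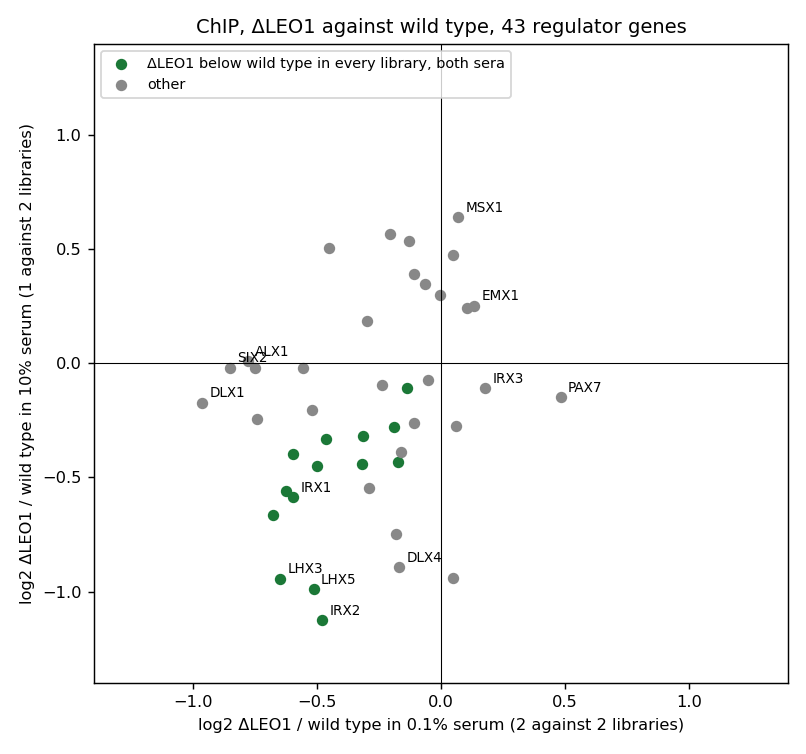
Log2 ΔLEO1 over wild type ChIP of the 43 members in 0.1% serum (horizontal axis, 2 against 2 libraries) and in 10% serum (vertical axis, 1 against 2 libraries); green points mark the 14 members with every ΔLEO1 library below every wild type library of the same serum. The lower left quadrant holds 27 of the 43 members, and none of them was called over the summed windows.

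The input was compared between genotypes over both sera, to show whether it moved with ChIP. None of the 46 members tested was called (7 at an unadjusted p under 0.05, DESeq2 0), as was 0.00174% of all genes. The lowest member was IRX2 at -0.58 ± 0.22 (SE, adjusted p = 0.818), with input of 5.79 and 6.44 CPM per window in wild type and 2.29 and 4.07 in ΔLEO1 at 10% serum. IRX4 was at -0.40 ± 0.16 (SE, adjusted p = 0.821) and NKX6-1, chosen for this after its values were seen, at -0.38 ± 0.18 (SE, adjusted p = 0.875), while IRX1 was at 0.05 ± 0.20 (SE, adjusted p = 0.998). With input taken off, the log2 genotype difference in 0.1% serum was -0.93 for IRX1, -0.15 for IRX2, -0.30 for IRX4 and 0.05 for NKX6-1, against -0.60, -0.48, -0.47 and -0.63 in ChIP alone. In 0.1% serum the inputs of IRX2 were 5.21 and 3.06 CPM per window in wild type and 4.44 and 2.23 in ΔLEO1, and those of IRX4 were 3.69 and 2.63 against 3.30 and 2.38. The genotypes overlapped in both genes. The inputs of NKX6-1, at 3.73 and 4.77 against 2.80 and 2.38, did not overlap, and their part in its ChIP difference was not tested. Over all members with input taken off, 39 of 46 had the lower value in ΔLEO1, with a median of -0.24, against 48.4% and a median of 0.02 over all genes. With the peak-table totals as library sizes 19 were lower and 27 higher, with a median of 0.09 against 0.31 over all genes. In the TMM fit 0 members were called (4 at an unadjusted p under 0.05, DESeq2 0), against 0.00521% of all genes.

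Serum was compared in wild type, 0.1% against 10% serum, 2 libraries each, and this comparison shares the wild type libraries in 0.1% serum with that of genotype. None of the 43 members and none of the 52966 genes was called by edgeR, a share of 0.0%, and DESeq2 called 0 as well, while 10 members and 4797 genes had an unadjusted p under 0.05. The members lay on both sides, 20 lower and 23 higher, with a median of 0.01. Both quiescent libraries lay above both proliferating ones for 11 members, against 17.1% of all genes, and below for 12, against 23.7%. PAX7 had 7.45 and 5.60 CPM per window in 10% serum and 2.15 and 3.26 in 0.1% serum, a log2 difference of -1.17 ± 0.29 (SE, adjusted p = 0.313). IRX2 was at -1.14 ± 0.42 (SE, adjusted p = 0.456), from the CPM given above. NKX6-2 had 15.8 and 12.9 in 10% serum and 8.44 and 3.58 in 0.1% serum, at -1.13 ± 0.33 (SE, adjusted p = 0.348). All 3 had no overlap between the sera. The value of NKX6-2 was -1.86 without replicate A in 0.1% serum and -0.69 without replicate B.

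Among the members with higher values in 0.1% serum, MSX1 had 2.79 and 2.86 CPM per window in 10% serum and 4.14 and 6.59 in 0.1% serum, at 0.87 ± 0.30 (SE, adjusted p = 0.440). SIX2 had 2.39 and 4.37 against 6.45 and 6.40, at 0.82 ± 0.35 (SE, adjusted p = 0.524), and PAX2 had 2.20 and 2.06 against 3.26 and 3.01, at 0.59 ± 0.25 (SE, adjusted p = 0.514). The sera did not overlap in these genes either. MSX1 stood at 0.54 without replicate B in 0.1% serum, and SIX2 at 0.52 or 1.24 without replicate A or B in 10% serum. With only non-overlapping windows, NKX6-2 was called, at -1.08 ± 0.24 (SE, adjusted p = 0.00541), together with 0.538% of all genes, and PAX2 moved to -0.02. All 4 of IRX1, IRX2, IRX3 and IRX4 lay below in both quiescent libraries, and IRX6 lay above. The wild type inputs of these 4 genes were lower in both quiescent libraries as well. For IRX1 they were 1.91 and 1.80 CPM against 3.79 and 4.25, for IRX2 5.21 and 3.06 against 5.79 and 6.44, for IRX3 3.99 and 4.98 against 5.89 and 7.27, and for IRX4 3.69 and 2.63 against 3.81 and 4.00. For IRX1, with input taken off, the serum difference moved from -0.84 to 0.05, for IRX2 from -1.14 to -0.71, for IRX3 from -0.71 to -0.25 and for IRX4 from -0.67 to -0.42. For NKX6-2 the inputs fell from 3.79 and 4.25 to 1.91 and 2.43, and the difference moved from -1.13 to -0.35. With input taken off, 0 members were called (4 at an unadjusted p under 0.05, DESeq2 0), as were 0.0% of all genes.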

How the data were processed

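Reads of H3K9me2 ChIP and input in BJ-5ta cells were counted by the authors, and the deposited counts are whole numbers per 2000 bp TSS window or per merged peak region, not normalized. The submitters' processing notes name bcl2fastq 2.20.0.422, STAR 2.7.10a, HOMER and the builds hg38 and dm6. The study's methods scaled with a fly spike-in, but the tables hold 0 fly windows, so no such scaling was used here. The handling of duplicate reads and the peak caller are not given in the sources used here.

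Counts were summed per gene over distinct windows, so a read in overlapping windows of a gene counts more than once. The fit takes such repeats as separate reads, so SEs, p-values and calls depend on how many windows of a gene overlap. By genotype in 0.1% serum, 6 genes were called over summed windows and 536 over non-overlapping ones. The 7 ChIP and 8 input libraries used held between 1895572 and 7947289 reads over these windows, and read numbers per gene limit the precision. Groups came from the sample labels. Genes were kept by filterByExpr (minimum count 10), scaled by TMM and tested with edgeR 4.0.16 in R 4.3.3 (quasi-likelihood F-test, two-sided, prior count 2, Benjamini-Hochberg over all genes, threshold 0.05). ChIP over input and differences with input taken off came from 1 fit of all 15 libraries, ChIP alone from the 7 ChIP libraries and input from the 8 inputs. SEs are the absolute log2 ratio over the square root of F. The fits were tested on simulated data. DESeq2 1.42.0, other library sizes, other windows, no filter, a replicate block and leaving out each library were alternatives. The members and lists were chosen with earlier results of these data known. Library values were given for the 4 lowest and 4 highest members in ChIP over input, for the 3 lowest and 3 highest in the genotype and serum comparisons, for IRX1, IRX2 and IRX4, and for members with a peak region. The choice of IRX1, IRX2 and IRX4 rested on an earlier note of lower ΔLEO1 input in their stretch of chromosome 5. That stretch as a whole was not examined here, and none of these genes was called in the input comparison.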

Additional observations from a re-analysis of the deposited data

Results flagged for a closer look

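For PAX2 and NKX2-2 every ΔLEO1 ChIP library lay on one side of wild type in 0.1% serum and on the other in 10% serum. The log2 difference of PAX2 was -0.30 in 0.1% serum and 0.19 in 10% serum, and that of NKX2-2 was -0.45 and 0.51. These differences between the sera were not tested, and the values in 10% serum rest on 1 ΔLEO1 library. Of all 52966 genes, 10.9% lay on opposite sides in the sera in this way, against 2 of 43 members. With input taken off, the difference of NKX2-2 in 0.1% serum was -0.09.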

How the results depend on the processing

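With the peak-table totals as library sizes, 42 members were lower and 0 higher in ChIP over input, with a median of -1.58. EN2 then stood at -0.28, SIX6 at -0.27 and NKX6-2 at -0.28. The members called lower rose to 39 in wild type at 10% serum, 40 in wild type at 0.1% serum and 41 in ΔLEO1 at 0.1% serum. The median over all genes moved to -1.43 by the same scaling, a shift set by the larger share of ChIP reads in the peak regions. Library totals without TMM gave a member median of 0.31, against 0.39 for all genes. Without windows shared with another gene, which leaves fewer members, the median was -0.043, and 8, 2 and 6 members were lower in the 3 conditions. Non-overlapping windows gave 5 lower in wild type at 0.1% serum, 1 member called by genotype and 1 by serum, a genotype difference of -0.077 for EMX1 and a serum difference of -0.018 for PAX2. The cause of these shifts by window choice was not tested. For ChIP over input, the share of all genes called with these windows was not computed. Leaving out 1 library gave 12 to 14 members lower, 17 to 19 higher, a median of -0.01 to 0.10, and 11 to 13, 6 to 8 and 8 to 11 lower in the 3 conditions. The genotype difference then ranged from -0.094 to 0.39 for EMX1 and from -0.49 to 0.76 for IRX3. It ranged from -1.397 to -0.58 for DLX1 and from 0.22 to 0.76 for PAX7, and the serum difference from -1.86 to -0.69 for NKX6-2, 0.54 to 1.16 for MSX1 and 0.52 to 1.24 for SIX2. No member was called by genotype, serum or input in any of these fits. Per-gene differences between A and B correlated at -0.057 to 0.116 over 21 pairs of groups, 1 of them over 0.1. At these read numbers counting noise can hide a pairing, so this does not settle whether the letters pair the libraries. A replicate block gave 12 lower, 19 higher and a median of 0.05. DESeq2 gave 14 lower and 16 higher. Low read numbers limit IRX5, DLX2 and EN2 most. The counts of members with both ΔLEO1 libraries below wild type under other library sizes and windows were chosen after seeing the data. With non-overlapping windows, 21 of 43 members lay below and 1 above, against 20.6% and 21.2% of all genes. Without shared windows, 16 of 33 members lay below and 2 above, against 20% and 21.5% of all genes.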
